A study of Mus musculus with 18 samples.

Results

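The Cyp4 fatty acid omega-hydroxylases of mouse liver were followed through Cyp4a10, Cyp4a12a, Cyp4a14, Cyp4a31, Cyp4f13, Cyp4f14, Cyp4f15 and Cyp4v3. Every probe set that the platform annotation pairs with exactly 1 of these symbols was taken, which gave 9 of the 45037 non-control probe sets. They covered 7 of the 8 genes (of 18193 genes with such a probe set, 13225 of them tested), with 2 probe sets each for Cyp4a31 and Cyp4v3. Cyp4a10 had 0 probe sets of its own, because its only listing (1424853_s_at) is shared with Cyp4a31. All 9 passed the filter on low values and were among the 27022 probe sets tested. The single member whose name marks it as open to cross-hybridisation was 1417071_s_at of Cyp4v3.

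Liver RNA of wild-type CD1 mice, an outbred stock, was measured on 18 Affymetrix arrays, 3 in each of 6 groups. CMPF, a furan fatty acid metabolite found in blood, was given at 6 mg/kg per day. In the prevention model, mice had CMPF for 1 week and then a high-fat diet (HFD, 60% of energy from fat) for 4 weeks, against vehicle and the same diet, and against chow controls; the series text gives 4 to 5 weeks of diet. In the reversal model, mice had HFD for 6 weeks and then CMPF for 2 weeks, against HFD with vehicle, and against chow controls. The chow controls are listed with injections at 0 mg/kg CMPF, for 1 week in prevention and 2 weeks in reversal. Separate animals are not stated for the arrays of a group, so each p measures the spread between these arrays, which may be technical.

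Enzymes of the Cyp4 family are cytochromes P450 of the endoplasmic reticulum that add a hydroxyl group to the terminal (omega) carbon of fatty acids and eicosanoids. Alcohol and aldehyde dehydrogenases then turn the product into a dicarboxylic acid, which peroxisomal beta-oxidation shortens. In rodent liver the Cyp4a genes are known targets of the fatty acid receptor PPAR alpha, and Cyp4f enzymes are known for the inactivation of leukotrienes.

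Hepatocyte transcripts were abundant on every array, with log2 signals of 14.38 to 14.69 for Alb, albumin, and of 14.10 to 14.46 for Ttr, transthyretin. Replicates 2 and 3 of CMPF on HFD in the prevention model were nearly identical: the SD of their difference over 5665 bright probe sets was 0.106, where the next closest of the 153 pairs of arrays had 0.274. They were averaged and entered the fit as a single sample, which leaves n = 2 for their group and 17 samples in all. Array means differed between the models, so signals were compared only within a model. A sign of RNA quality also differed: the 3′ to 5′ index, the mean 3′ minus 5′ signal of the Gapdh and beta-actin controls, is higher where RNA is shorter. In the prevention model it was 2.95 ± 0.285 (SD, n = 2) for CMPF on HFD, 2.84 ± 0.303 (n = 3) for HFD and 1.43 ± 0.512 (n = 3) for chow. In reversal it was 2.63 ± 0.957 for CMPF on HFD, 2.62 ± 0.969 for HFD and 3.15 ± 0.566 for chow (SD, n = 3 each). Replicate 2 of chow in the reversal model stood apart: the SD of its difference was 0.705 and 0.781 to the other chow arrays of its model and up to 0.970 to all arrays, against 0.274 to 0.575 in the other pairs within a group, the near-identical pair aside. Without it 144 probe sets passed the test used below for HFD in reversal, against 334 with all samples. No member's HFD effect in reversal changed its sign or its call. Values without it are given below for Cyp4a14 and Cyp4a31, and for the between-model differences of Cyp4v3 and Cyp4f15. The gene lists were not recomputed without it. In bulk liver, fewer cells of a type and less RNA per cell cannot be told apart.

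On GRCm38.p6 the Cyp4a members lie within 280 kb of chromosome 4: Cyp4a12a at chr4:115299046-115332815, Cyp4a14 at chr4:115486200-115496158, Cyp4a10 at chr4:115518287-115533649 and Cyp4a31 at chr4:115563627-115579015. The Cyp4f members lie within 262 kb of chromosome 17, with Cyp4f15 at chr17:32685631-32703352, Cyp4f14 at chr17:32903357-32917376 and Cyp4f13 at chr17:32924688-32947415. Cyp4v3 is at chr8:45305801-45333163. RefSeq promoter sequences (250 bases before and 50 after an annotated start site, from which positions are counted) were at hand for Cyp4f13, Cyp4f14, Cyp4f15 and Cyp4v3, all on GRCm38.p6 and written 5′ to 3′ along the gene. That site is the outer end of the gene given above for Cyp4v3, and lies inside it by 54 bases for Cyp4f13, 20 for Cyp4f14 and 28 for Cyp4f15. Cyp4v3 and Cyp4f15 each had a probe set that passed the test below of the difference in HFD effect between the models. The other Cyp4v3 probe set did not pass, and neither call held with the 3′ to 5′ index in the fit. The promoters of Cyp4v3 and Cyp4f15 are shown whole because of these calls. In that of Cyp4v3 the capitals mark CCGCCC, the reverse complement of the motif GGGCGG, at position -44. In that of Cyp4f15 they mark ATTGG, the reverse complement of CCAAT, at position -78.
Cyp4v3 (chr8:45333114-45333413, minus strand): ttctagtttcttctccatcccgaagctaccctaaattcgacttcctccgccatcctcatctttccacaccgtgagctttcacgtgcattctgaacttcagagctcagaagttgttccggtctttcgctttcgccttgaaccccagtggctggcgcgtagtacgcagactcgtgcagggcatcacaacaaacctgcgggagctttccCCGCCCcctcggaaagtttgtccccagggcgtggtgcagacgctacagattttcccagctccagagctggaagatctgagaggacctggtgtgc
Cyp4f15 (chr17:32685409-32685708, plus strand): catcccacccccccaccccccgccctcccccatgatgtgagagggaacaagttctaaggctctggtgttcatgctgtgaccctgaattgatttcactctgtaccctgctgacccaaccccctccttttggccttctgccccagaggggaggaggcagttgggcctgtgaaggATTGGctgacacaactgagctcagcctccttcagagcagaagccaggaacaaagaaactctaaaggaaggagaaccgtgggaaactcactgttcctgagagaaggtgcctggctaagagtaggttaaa

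Cyp4f14 had 4 promoter entries, and only the first listed was read. Its motifs hold for that start site alone. All 3 Cyp4f promoters read held ATTGG, at -76 in Cyp4f13, -50 in Cyp4f14 and -78 in Cyp4f15. Windows of 40 bases around it are set side by side here, since the 3 genes lie close together; capitals mark ATTGG.
Cyp4f13 (chr17:32947416-32947455, minus strand): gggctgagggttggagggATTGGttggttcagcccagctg
Cyp4f14 (chr17:32917385-32917424, minus strand): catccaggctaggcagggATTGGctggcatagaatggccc
Cyp4f15 (chr17:32685563-32685602, plus strand): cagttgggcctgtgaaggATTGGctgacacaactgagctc

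The motif CCAAT was found on either strand in 37.4% of all 32851 RefSeq promoters of this length, GGGCGG in 35.7%, TATAAA in 13.6% and AGGTCA in 16.3%; both strands were searched and these motifs do not contain one another. CCAAT was not found in the Cyp4v3 window, and neither TATAAA nor AGGTCA, a nuclear receptor motif, was found in any of the 4 windows. GGGCGG was also found reversed in Cyp4f13 at -136 and in Cyp4f15 at -231. A match describes the letters of the window only.

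HFD against chow asked what the diet did to the omega-hydroxylases. In the prevention model 1 of the 9 probe sets passed the test, 1417070_at of Cyp4v3, which fell (limma, Benjamini-Hochberg adjusted p under 0.05 over all probe sets tested). The share called among all probe sets was 5.75%. The log2 fold change was negative for 8 of the 9, with a median of -0.68, beside 0.02 over all probe sets. In reversal 0 of 9 passed, against 1.24% of all probe sets; 8 of 9 were again negative, with a median of -0.31, beside -0.01 over all probe sets. Before adjustment 3 of the 9 had a p under 0.05 in prevention and 4 in reversal, where 26.8% and 19.9% of all probe sets did. The groups did not overlap for 3 members in prevention and 4 in reversal, where the shares over all probe sets were 29.8% and 21.5%.

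Cyp4a14 encodes an omega-hydroxylase that is among the most inducible genes of mouse liver under PPAR alpha agonists. In the prevention model its log2 signal was 13.24 and 11.44 in CMPF on HFD, 12.29, 12.64 and 10.68 in HFD, and 12.98, 13.48 and 12.70 in chow. The reversal samples had 10.72, 10.28 and 11.38 in CMPF on HFD, 12.47, 9.95 and 12.32 in HFD, and 13.48, 12.71 and 13.72 in chow. In both models every HFD sample lay below every chow sample, and 1 HFD sample in each lay far below the others. HFD against chow was -1.18 ± 0.672 (log2 fold change ± SE, adjusted p = 0.276 by limma) in prevention and -1.73 ± 0.672 (0.192) in reversal. Neither passed. The prevention value was -0.59 without HFD replicate 3, and the reversal value was -0.91 without HFD replicate 2 and -2.02 without chow replicate 2.

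Cyp4a31 is a close relative of Cyp4a10 in the same gene cluster, and its probe sets were read separately. On 1440134_at the prevention signals were 8.08 and 6.70 in CMPF on HFD, 6.96, 7.55 and 6.70 in HFD, and 8.98, 8.69 and 7.03 in chow. The third chow sample lay within the range of the HFD samples. The reversal signals were 7.87, 7.93 and 7.88 in CMPF on HFD, 8.33, 6.89 and 8.25 in HFD, and 10.30, 9.18 and 10.58 in chow. All HFD samples of the reversal model, with or without CMPF, lay below all its chow samples. HFD against chow was -1.16 ± 0.540 (adjusted p = 0.185, limma) in prevention and -2.20 ± 0.540 (0.0664) in reversal, with a 95% interval of -3.36 to -1.04 in reversal. The reversal value passed in a separate fit with each gene represented by its brightest probe set (adjusted p = 0.0472, limma), in which 2.45% of 13225 genes were called in reversal and 5.57% in prevention, and when chow replicate 3 of the prevention model was left out (0.0407). Without chow replicate 2 of the reversal model, its lowest chow sample here, it was -2.62 (0.0676).

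The other Cyp4a31 probe set, 1424943_at, was dim. Its prevention signals were 6.20 and 3.34 in CMPF on HFD, 4.16, 3.96 and 4.31 in HFD, and 6.77, 6.44 and 4.16 in chow. In reversal it had 5.20, 4.86 and 5.30 in CMPF on HFD, 5.80, 3.45 and 4.76 in HFD, and 7.69, 5.53 and 8.05 in chow. HFD and chow overlapped by 1 chow sample in each model. The HFD effect was -1.65 ± 0.847 (adjusted p = 0.227, limma) in prevention and -2.42 ± 0.847 (0.158) in reversal, or -3.20 (0.121) without reversal chow replicate 2. Averaged over the models, the HFD effect was -1.45 ± 0.475 (adjusted p = 0.186) for Cyp4a14, -2.04 ± 0.599 (0.138) for 1424943_at and -1.68 ± 0.382 (0.0559) for 1440134_at, by limma; 0 of 9 members passed, against 1.02% of all probe sets. The average for 1440134_at passed under 4 of 7 other settings, with adjusted p of 0.0353 to 0.0418 (limma). These were all 18 arrays, which counts the near-identical pair separately, the replicate block, 1 probe set per gene and quantile normalisation. Whether replicate numbers pair samples is not known. Under the remaining 3 settings it did not pass, with adjusted p up to 0.0737. It also passed without prevention chow replicate 3 (0.0267) or reversal chow replicate 2 (0.0354).

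The probe set that Cyp4a10 and Cyp4a31 share cannot be assigned to either gene. Its prevention signals were 13.20 and 12.27 in CMPF on HFD, 12.42, 12.63 and 12.38 in HFD, and 13.42, 13.81 and 13.31 in chow. Signals in reversal were 11.80, 10.93 and 12.72 in CMPF on HFD, 13.32, 11.68 and 12.79 in HFD, and 13.92, 12.98 and 13.89 in chow. HFD lay below chow without overlap in prevention only, and its HFD effect was -1.04 ± 0.453 (adjusted p = 0.163, limma) in prevention and -0.9997 ± 0.453 (0.242) in reversal.

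Cyp4a12a, a male-biased enzyme known in mouse for hydroxylating arachidonic acid, differed less between groups. Its prevention signals were 11.03 and 10.49 in CMPF on HFD, 10.24, 10.59 and 10.56 in HFD, and 11.09, 11.09 and 10.60 in chow. HFD lay below chow there without overlap, though narrowly. Reversal samples had 11.28, 11.05 and 11.46 in CMPF on HFD, 10.74, 11.10 and 12.04 in HFD, and 11.77, 11.38 and 11.67 in chow, with the highest value of all in an HFD sample. The HFD effect was -0.46 ± 0.273 (adjusted p = 0.295, limma) in prevention and -0.31 ± 0.273 (0.512) in reversal.

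**Figure D1:**
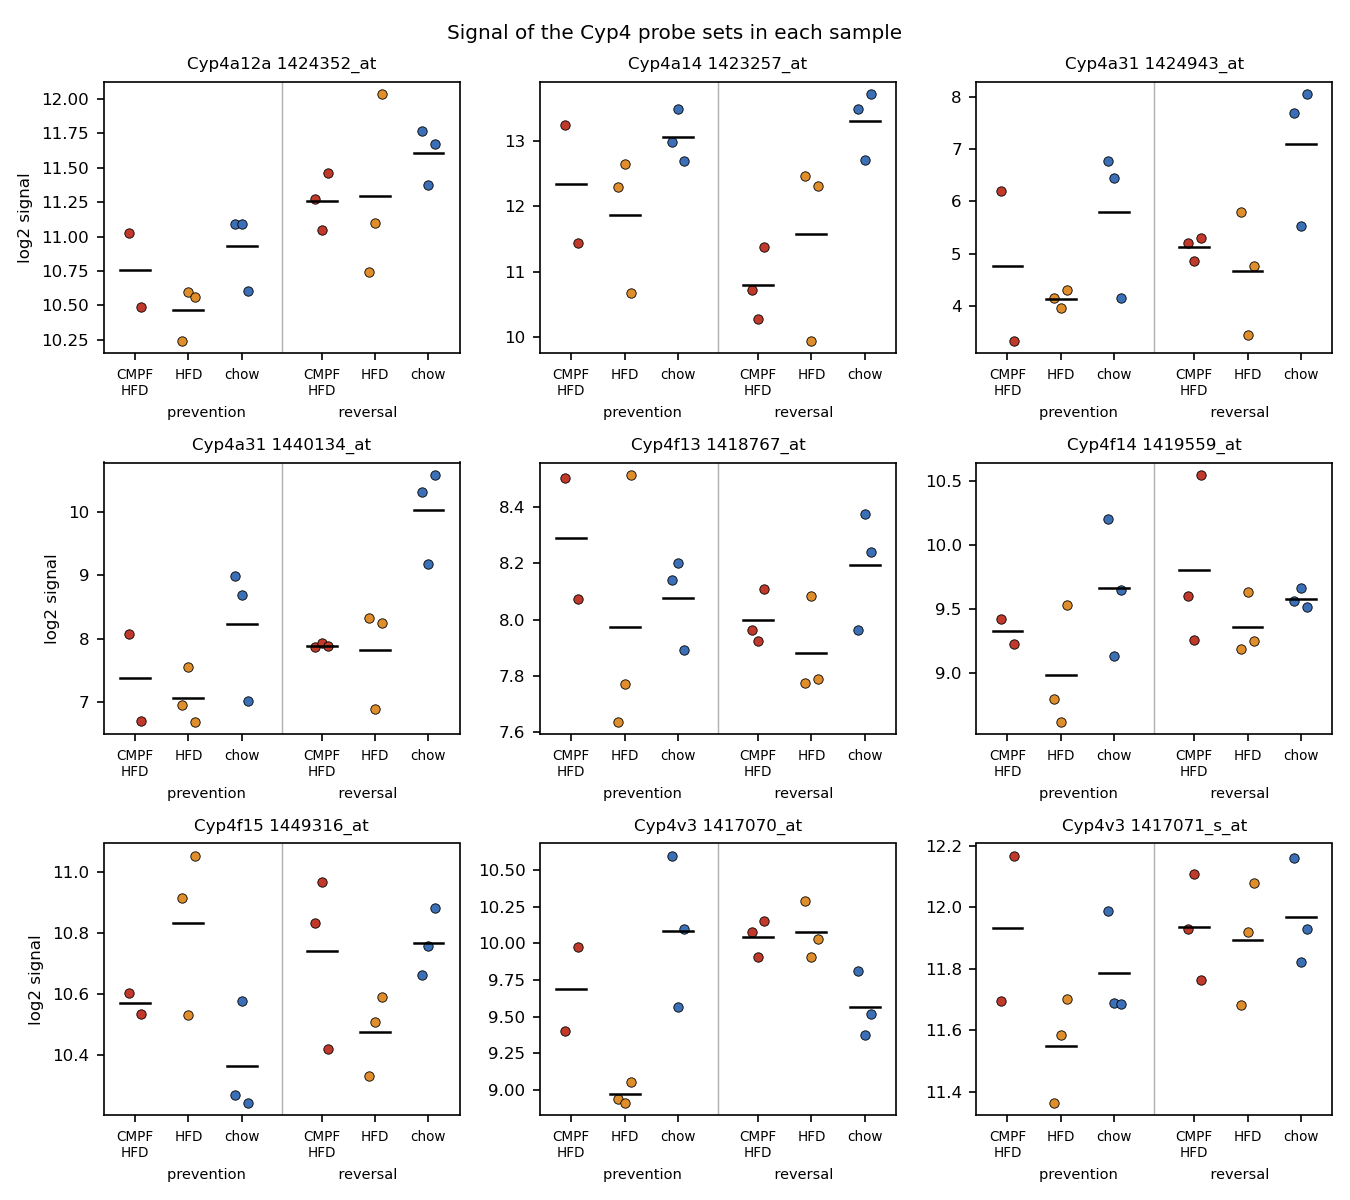
Log2 signal (vertical axis) of each of the 9 Cyp4 probe sets, 1 panel each, with 1 point per sample and a bar at the group mean; CMPF on HFD, HFD and chow stand from left to right for the prevention model and then for the reversal model. In the Cyp4a14 and Cyp4a31 panels both HFD means of the reversal model lie below its chow mean, and the 1417070_at panel of Cyp4v3 shows the prevention HFD samples at 8.91 to 9.06, below all other samples of that model.

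Cyp4v3 is the mouse counterpart of human CYP4V2, a fatty acid omega-hydroxylase whose loss causes a crystalline retinal dystrophy. On 1417070_at the prevention signals were 9.40 and 9.98 in CMPF on HFD, 8.94, 8.91 and 9.06 in HFD, and 10.60, 9.56 and 10.10 in chow. The HFD samples were the lowest of the model, below both other groups without overlap. The reversal signals were 10.08, 9.91 and 10.15 in CMPF on HFD, 10.29, 9.91 and 10.03 in HFD, and 9.81, 9.38 and 9.52 in chow, and every HFD sample lay above every chow sample. HFD against chow was -1.12 ± 0.221 in prevention (adjusted p = 0.0194, limma; 0.461 times the chow signal) and 0.51 ± 0.221 (0.228) in reversal. The prevention call was lost without chow replicate 1 (effect -0.86, adjusted p = 0.0897), chow replicate 3 (0.0949), HFD replicate 1 (0.0720) or HFD replicate 2 (0.0565) of that model.

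The other Cyp4v3 probe set, 1417071_s_at, which can cross-hybridise, did not show this. Its prevention signals were 11.70 and 12.17 in CMPF on HFD, 11.37, 11.59 and 11.70 in HFD, and 11.99, 11.69 and 11.68 in chow. Its reversal signals were 11.93, 12.11 and 11.76 in CMPF on HFD, 11.68, 11.92 and 12.08 in HFD, and 12.16, 11.82 and 11.93 in chow. HFD and chow overlapped in both models, with HFD effects of -0.24 ± 0.160 (adjusted p = 0.364, limma) in prevention and -0.08 ± 0.160 (0.799) in reversal. Across the 17 samples, centred on each model, the Cyp4v3 probe sets correlated at r = 0.47, which is a description of arrays that share groups.

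Cyp4f14, known in mouse as a leukotriene B4 omega-hydroxylase of the liver, had prevention signals of 9.42 and 9.23 in CMPF on HFD, 8.79, 8.62 and 9.53 in HFD, and 10.20, 9.14 and 9.65 in chow. Its reversal signals were 9.60, 9.26 and 10.55 in CMPF on HFD, 9.19, 9.63 and 9.25 in HFD, and 9.56, 9.66 and 9.51 in chow. The groups overlapped in both models, and the HFD effect was -0.68 ± 0.324 (adjusted p = 0.195, limma) in prevention and -0.22 ± 0.324 (0.704) in reversal. Cyp4f13, its neighbour, varied little. Its prevention signals were 8.50 and 8.07 in CMPF on HFD, 7.64, 7.77 and 8.52 in HFD, and 8.14, 8.20 and 7.89 in chow, with both the lowest and the highest value of the model in HFD. Its reversal signals were 7.96, 7.92 and 8.11 in CMPF on HFD, 7.78, 8.08 and 7.79 in HFD, and 7.96, 8.38 and 8.24 in chow. Its HFD effect was -0.10 ± 0.204 (adjusted p = 0.781, limma) in prevention, where quantile normalisation of all arrays gave 0.01, and -0.31 ± 0.204 (0.385) in reversal.

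Cyp4f15, the remaining Cyp4f member, was the only one of the 9 with a positive HFD effect in prevention. Its prevention signals were 10.60 and 10.53 in CMPF on HFD, 10.91, 10.53 and 11.05 in HFD, and 10.27, 10.57 and 10.24 in chow. HFD replicate 2 lay just below the highest chow sample, so the groups overlapped. Its reversal signals were 10.83, 10.97 and 10.42 in CMPF on HFD, 10.33, 10.51 and 10.59 in HFD, and 10.66, 10.76 and 10.88 in chow, with all HFD samples below all chow samples. The HFD effect was 0.47 ± 0.162 (adjusted p = 0.0914, limma) in prevention, which passed without chow replicate 2 (0.0421), and -0.29 ± 0.162 (0.315) in reversal.

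The difference of the HFD effect, prevention minus reversal, was tested directly. It passed for 2 of 9 members, while 11.6% of all probe sets passed. It was -1.62 ± 0.313 (adjusted p = 0.0209, limma) for 1417070_at of Cyp4v3 and 0.76 ± 0.229 (0.0470) for Cyp4f15, in opposite directions. For 1417071_s_at of Cyp4v3 it was -0.16 ± 0.226 (0.648). The Cyp4f15 call was lost without any 1 of 12 of the 17 samples, with adjusted p up to 0.119. It was 0.77 (0.0813) without reversal chow replicate 2. The Cyp4v3 difference was -1.53 (0.0413) without that sample, and its call was lost without prevention chow replicate 1 (0.0624), prevention chow replicate 3 (0.0602) or reversal HFD replicate 1 (0.0565).

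The signals of both genes varied with the 3′ to 5′ index. Across samples, r with the index was -0.73 in prevention (n = 8) and -0.73 in reversal (n = 9) for 1417070_at of Cyp4v3, and 0.78 and 0.75 for Cyp4f15 in the same models. These are descriptions of samples that share groups. When the index was added to the fit, the prevention HFD effect on 1417070_at was -0.77 (adjusted p = 0.227, limma), the difference between models -1.15 (0.230), and that of Cyp4f15 0.32 (0.556). For Cyp4a14 the HFD effect in prevention was then -0.34 (0.926) and in reversal -2.04 (0.122). The index differed between HFD and chow in the prevention model, so diet and index cannot be told apart there. For Cyp4a14 and the Cyp4a31 probe sets r ranged lower in size, at -0.46, -0.38 and -0.27 in prevention and -0.11, 0.13 and -0.07 in reversal for Cyp4a14, 1440134_at and 1424943_at in that order. For the probe set that Cyp4a10 and Cyp4a31 share r was -0.64 in prevention and -0.30 in reversal. The other members' r lay at -0.28 and 0.18 for Cyp4a12a, 0.33 and 0.44 for Cyp4f13, -0.50 and -0.34 for Cyp4f14, and -0.16 and 0.51 for 1417071_s_at of Cyp4v3, prevention first.

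**Figure D2:**
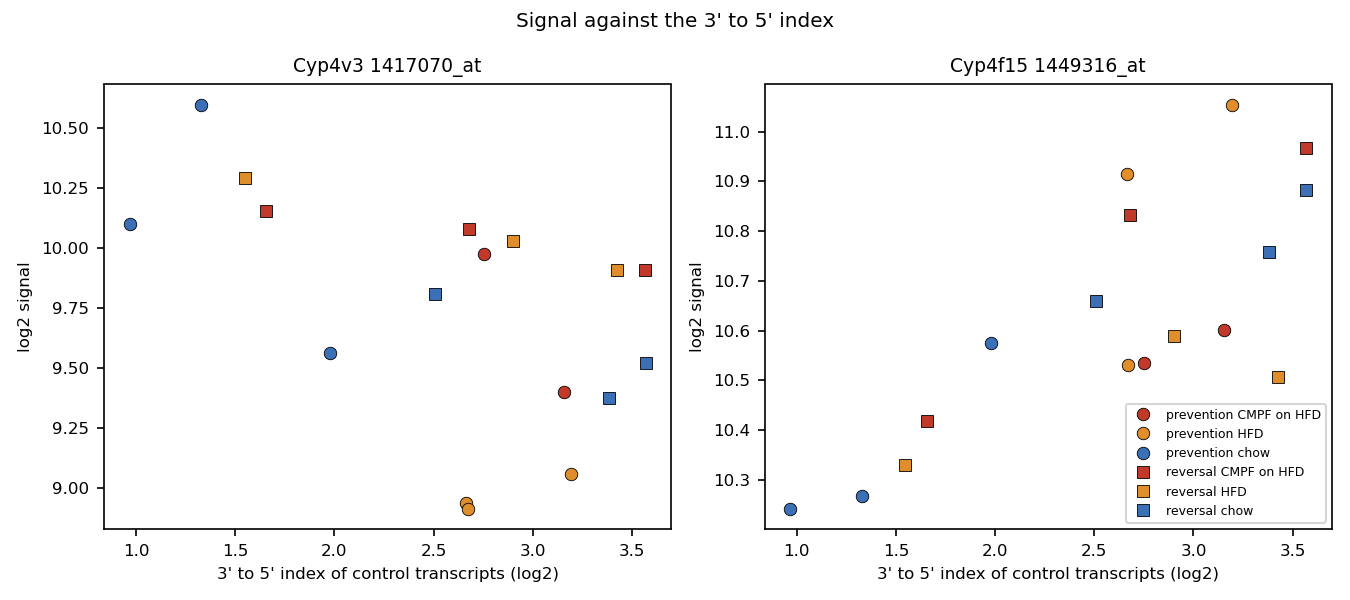
Log2 signal of Cyp4v3 (1417070_at, left panel) and of Cyp4f15 (1449316_at, right panel) against the 3′ to 5′ index (log2 scale), 1 point per sample, circles for the prevention and squares for the reversal model. Cyp4v3 slopes down and Cyp4f15 up with the index in each model, with r of -0.73 and -0.73 against 0.78 and 0.75.

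CMPF on HFD against vehicle on HFD asked whether the compound changed these genes in mice on the diet. In the prevention model 0 of 9 members passed, as did 0% of all probe sets, while 2015 probe sets had a limma p under 0.05 before adjustment. The log2 fold change was positive for 8 of 9 members, with a median of 0.34, beside 0.00 over all probe sets. The HFD samples here are those set against chow above, so opposite signs of the diet and CMPF effects are partly built in. In the reversal model 0 of 9 passed, against 0.0037% of all probe sets (1 probe set, with 1078 under 0.05 before adjustment), and the median was 0.07, with 6 positive and 3 negative. The groups did not overlap for 1 member in prevention and 0 in reversal, where 30% and 7.93% of all probe sets did not.

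The member whose groups did not overlap was 1417070_at of Cyp4v3, with 9.40 and 9.98 in CMPF on HFD, against 8.94, 8.91 and 9.06 in HFD of the prevention model. The CMPF effect was 0.72 ± 0.248 with a 95% interval of 0.19 to 1.25 (adjusted p = 0.539, limma), and it did not pass. The same HFD samples gave the HFD effect of -1.12, so the values are not independent. The CMPF effect in reversal was -0.03 with an interval of -0.51 to 0.45. The index was similar in those prevention groups, at 2.95 and 2.84. On 1417071_s_at the effect was 0.38 ± 0.179 (adjusted p = 0.673, limma) in prevention and 0.04 in reversal.

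For Cyp4a14 the CMPF effect was 0.47 ± 0.751 (adjusted p = 0.938, limma) in prevention, with a 95% interval of -1.14 to 2.08, and -0.78 ± 0.672 (1) in reversal, with an interval of -2.22 to 0.66. The prevention value rested on CMPF replicate 1, at 13.24; without it the effect was -0.43, and without HFD replicate 3 it was -0.13. For 1424943_at of Cyp4a31 it was 0.63 with an interval of -1.40 to 2.66 in prevention, and -0.80 without CMPF replicate 1. For 1440134_at it was 0.32 with an interval of -0.98 to 1.62, and -0.37 without that replicate. In reversal these probe sets gave 0.45 (-1.37 to 2.27) and 0.07 (-1.09 to 1.23). Apart from the lower end for 1440134_at in prevention, these Cyp4a31 intervals reach past 2-fold in both directions. A CMPF effect of that size is therefore not excluded by them.

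The remaining members had narrower intervals. Cyp4a12a differed by 0.29 ± 0.305 (adjusted p = 0.889, limma) in prevention and by -0.03 in reversal, with an interval of -0.62 to 0.55. Cyp4f14 differed by 0.34 ± 0.362 (0.892) and 0.44 ± 0.324 (1), and the reversal value was 0.07 without CMPF replicate 3, at 10.55. Cyp4f13 differed by 0.32 ± 0.228 (0.823) and 0.12 ± 0.204 (1). Cyp4f15 differed by -0.27 ± 0.181 (0.814) in prevention and by 0.27 ± 0.162 (1) in reversal. Averaged over the models, 0 of 9 members and 0% of all probe sets passed for CMPF (1183 under 0.05 before adjustment), and the difference of the CMPF effect between models passed for 0 of 9 and 0% (1974 before adjustment).

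CMPF on HFD was also set against chow, a comparison added after the values were seen. In the reversal model Cyp4a14 was at -2.51 ± 0.672 (adjusted p = 0.0949, limma), 1440134_at of Cyp4a31 at -2.13 ± 0.540 (0.0799) and 1424943_at at -1.97 ± 0.847 (0.278). Their groups did not overlap, nor did those of 1417070_at of Cyp4v3, which made 4 of 9 members beside 16.7% of all probe sets. Of the 9, 0 passed, against 1.17% of all probe sets. Cyp4a14 passed without reversal HFD replicate 2 (0.0444) and with the index as a covariate (-2.82, 0.0429), and 1440134_at passed without prevention chow replicate 3 (0.0489). Without reversal chow replicate 2 Cyp4a14 was at -2.80 (0.128), 1440134_at at -2.55 (0.0709) and 1424943_at at -2.75 (0.197). In prevention 0 of 9 passed and 0% of all probe sets (2965 before adjustment), and 0 of 9 members had groups without overlap, against 32% of all probe sets. Both HFD groups of a model are set against the same chow samples, so these values and those of HFD alone are not independent.

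**Figure D3:**
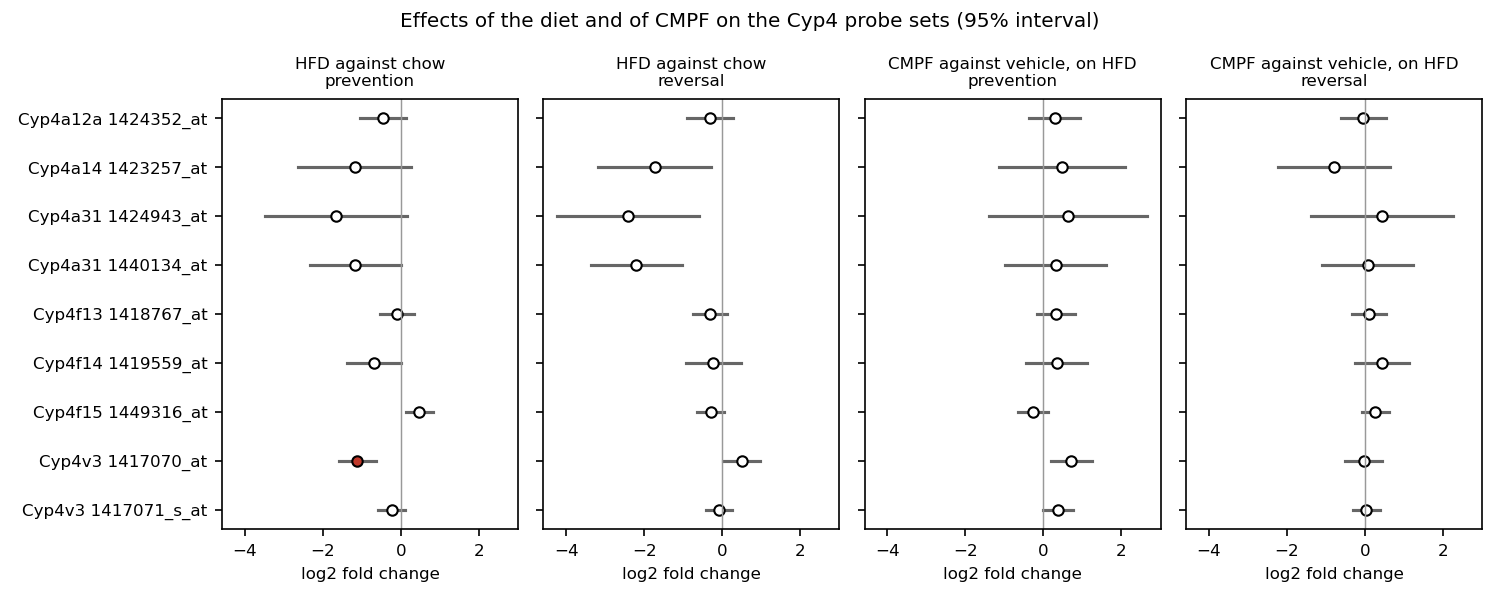
Log2 fold change with its 95% interval (horizontal axis) of the 9 Cyp4 probe sets, for HFD against chow and for CMPF against vehicle on HFD, prevention and then reversal in each; a filled point passed the test. The filled point is 1417070_at of Cyp4v3 for HFD in prevention, at -1.12, and the widest intervals are those of Cyp4a14 and Cyp4a31.

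The Cyp4a members varied together from sample to sample. Across the 17 samples, centred on the mean of each model, Cyp4a14 correlated at r = 0.87 with 1440134_at and at 0.79 with 1424943_at of Cyp4a31, and the Cyp4a31 probe sets at 0.94 with each other. Centred on each group, which removes diet and CMPF, these were 0.75, 0.66 and 0.91. Cyp4a12a was less close, at 0.55 with Cyp4a14 and 0.63 with 1440134_at. Cyp4a14 was at 0.02 with Cyp4f13, and Cyp4f15 was at -0.71 with 1417070_at of Cyp4v3, or -0.44 centred on groups. The samples share groups, and the Cyp4a probe sets may share cross-hybridising transcripts, so these are descriptions. Of the genes that are no members, the 3 whose signal was most like that of Cyp4a14 were Arhgap31 (r = 0.86), Arid2 (0.82) and Il1f9 (0.78), over 17 samples. For Cyp4a12a they were Amhr2 (0.83), Pdk1 (0.82) and Paqr9 (0.81), and for Cyp4f14 they were Madd (0.85), 4833411C07Rik (0.84) and Brd8 (0.81).

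**Figure D4:**
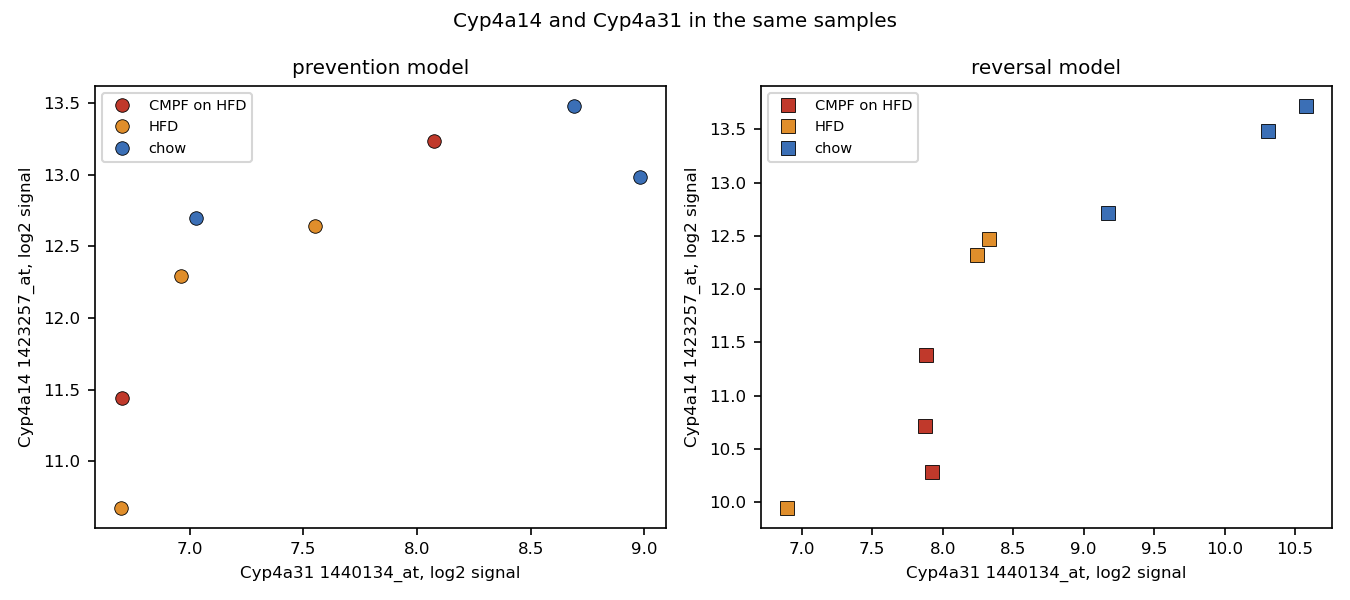
Log2 signal of Cyp4a14 (vertical) against that of 1440134_at of Cyp4a31 (horizontal), 1 point per sample, prevention model left and reversal model right, coloured by CMPF on HFD, HFD and chow. The samples rise together in each panel, and the chow samples of the reversal model stand at the upper right, at 9.18 to 10.58 for Cyp4a31.

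Other PPAR alpha target genes were read from a list of 38, of which 34 were tested, each by its brightest probe set. Of all 13225 genes so represented, 5.43% passed with HFD in prevention and 1.63% in reversal. With the 3′ to 5′ index in the fit, 0 of 27022 probe sets passed for HFD in prevention, against 1553 without it. Diet and index cannot be told apart in that model, for this list and for those that follow. With HFD in prevention 5 fell and 0 rose, with a median of -0.21, beside 0.00 over all genes. Those with the smallest p were Cpt1a, which passes long-chain fatty acids to mitochondria, which fell by 0.96 (adjusted p = 0.00812, limma), and Hadhb, a subunit of the mitochondrial trifunctional protein, which fell by 1.29 (0.00972). Ehhadh, the peroxisomal bifunctional enzyme that acts on dicarboxylic acids, fell by 1.43 ± 0.301 (0.0233). Ppara itself was at -0.21 (0.574), Fgf21, a fasting hormone, at -1.22 (0.103) and Pdk4, a pyruvate dehydrogenase kinase, at 1.22 (0.0858). With HFD in reversal 0 of 34 passed, with a median of 0.04, beside 0.03 over all genes; Aldh3a2, a fatty aldehyde dehydrogenase, was at 1.17 (0.0741) and Crat, carnitine acetyltransferase, at -0.55 (0.0852). There Ehhadh was at -0.60 (0.280), Pdk4 at -1.01 (0.203), Fgf21 at -0.66 (0.390) and Ppara at 0.10 (0.804). With CMPF 0 of 34 passed in either model, with medians of -0.01 in prevention and -0.17 in reversal. Fgf21 was at 2.04 ± 0.489 in prevention (adjusted p = 0.318, limma) and Hsd17b4, a peroxisomal bifunctional enzyme, at 0.31 (0.626); Vnn1, vanin, was at -0.81 and Acot2, an acyl-CoA thioesterase, at -0.59 in reversal (1 each).

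**Figure D5:**
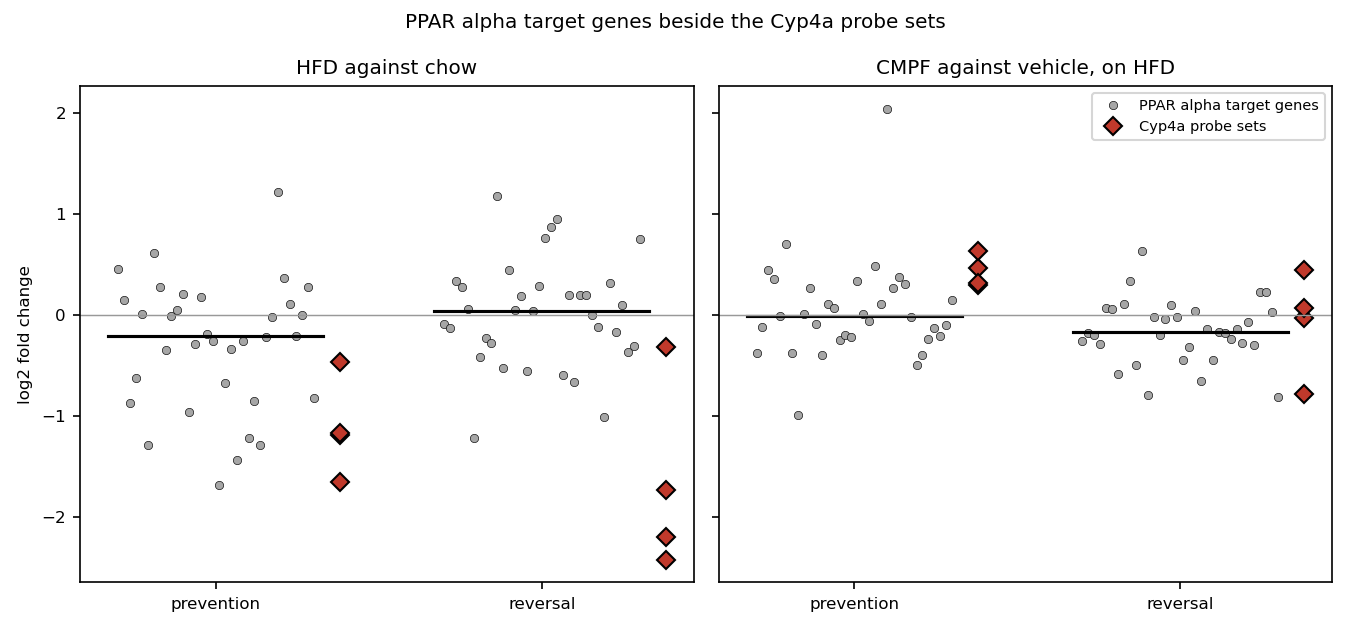
Log2 fold change (vertical axis) of 34 PPAR alpha target genes (grey points, bar at the median) and of the Cyp4a probe sets (red diamonds), for HFD against chow and for CMPF against vehicle on HFD in each model. With HFD in reversal the Cyp4a14 and Cyp4a31 diamonds lie at -1.73 to -2.42 and that of Cyp4a12a at -0.31, and none of them passed the test. The median of the list is 0.04 there.

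The steps around omega-hydroxylation were read from 2 further lists, with the same limit of the index in prevention. Of 17 tested genes downstream of it (of 19 listed), 2 fell with HFD in prevention, Ehhadh and Crot, the peroxisomal carnitine octanoyltransferase (-1.08, adjusted p = 0.0312, limma), and 0 rose, with a median of -0.14. In reversal 0 passed, with a median of 0.13, and Abcd2, a peroxisomal fatty acid transporter, was at 0.95 (0.0750) beside Aldh3a2. With CMPF 0 of 17 passed in either model. Of the list of electron donors and haem enzymes of microsomal P450, 6 of 7 genes were tested and 1 passed with HFD in reversal. This was Cyb5b, a cytochrome b5 of the outer mitochondrial membrane and so not a microsomal donor. It rose by 0.92 ± 0.143 (adjusted p = 0.0107, limma). All 6 were positive in that comparison, with a median of 0.69. In prevention 0 of 6 passed, with a median of -0.01, and with CMPF 0 of 6 passed in either model. Of 12 other Cyp4 genes 3 were tested, Cyp4f16, Cyp4f39 and Cyp4b1, and 0 passed in these comparisons.

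Other liver gene lists were read in the same way, beside the same shares over all genes and with the same limit of the index in prevention. Of 14 tested male-biased genes (of 19 listed), 9 fell and 0 rose with HFD in prevention, with a median of -1.23; Ugt2b38, a glucuronosyltransferase, was at -2.97 (adjusted p = 0.00812, limma) and C6, a complement component, at -1.82 (0.00899). In reversal 0 of 14 passed, with a median of -0.31. Of 10 tested female-biased genes (of 17 listed), 4 passed upward in each model and 0 downward, led by Cyp2b9 at 3.68 (adjusted p = 0.00899, limma) in prevention and 5.19 (0.0012) in reversal. In prevention 9 of the 10 were positive and 1 negative, with a median of 0.71. In reversal 5 were positive and 5 negative, with a median of 0.43. Of 12 pericentral genes, 2 rose in prevention and 5 in reversal, with medians of 0.18 and 0.90. Of 8 tested periportal genes 2 fell in prevention and 0 passed in reversal. Of 10 tested Kupffer cell and macrophage markers 0 passed in either model; their mean log2 signal per sample was 7.08 to 7.64 in HFD, against 6.49 to 7.02 in chow of the reversal model, and 6.25 to 8.10 in HFD, against 6.20 to 8.10 in chow of the prevention model. Of 11 tested hepatocyte markers 0 passed in either model. In prevention 9 of the 11 were negative, with a median of -0.21, and in reversal 2 were, with a median of 0.07. Their mean log2 signal per sample was 13.07 to 13.18 in HFD, against 13.32 to 13.42 in chow of the prevention model. In reversal it was 13.35 to 13.52 in HFD, against 13.19 to 13.47 in chow. Of the neutrophil (5 tested), lymphocyte (6), stellate cell (9) and cholangiocyte (4) markers 0 passed with HFD in either model, and of 7 endothelial markers 1 rose in prevention, Stab2 (0.52, 0.0496). The part of these changes in the Cyp4 values was not tested.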

How the data were processed

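Per sample, 200 ng of liver RNA, purified with a Qiagen kit, was biotin-labelled, per the labels' protocols. The deposited values are log2 signals that the authors made with Affymetrix Expression Console version 1.1 and RMA, per the submitters' processing notes. Array means fell at 2 levels, 5.07 to 5.09 in prevention and 5.24 to 5.25 in reversal. Arrays give no read depth; their number limits the precision.

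The table held 45101 probe sets, 64 of them controls. Genes were named from the platform annotation given for the series, which pairs 34945 probe sets with 1 symbol and 932 with several; positions and promoters came from RefSeq tables of GRCm38.p6. Probe sets whose mean log2 signal over all samples was at or under the 40% quantile (4.01) were dropped. All groups were fitted in 1 model of 6 group means with limma 3.58.1 in R 4.3.3 (lmFit and eBayes, 11 residual degrees of freedom, prior 2.86), with Benjamini-Hochberg adjustment over the 27022 probe sets tested and a threshold of 0.05. Groups were taken from the labels, 10 comparisons were read, and 2 of them (CMPF on HFD against chow) were added after the values were seen. The plan had foreseen averaging the near-identical arrays if the files showed them. The alternatives were all 18 arrays, the replicate number as a block, no filter, 1 probe set per gene, quantile normalisation, the 3′ to 5′ index as a covariate, each model alone and each sample left out. The fit was tested on simulated data. Figures were drawn with Python 3.11.15.

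The members and the gene lists were chosen with earlier results of these data known. The text names every member probe set, of each list the 2 genes with the smallest p in a comparison described, and always Ppara, Ehhadh, Fgf21 and Pdk4 (another gene of this rule is not reported here). It also names the 3 non-member genes most correlated with Cyp4a14, Cyp4a12a and Cyp4f14. Stab2 and Abcd2 were named by their p in the same way.

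Replicate numbers were checked for pairing. The 16 same-numbered pairs of deviations from group means within a model correlated at -0.33 to 0.47. Deviations within groups this small depend on each other, so this check cannot decide whether the numbers pair samples.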

Additional observations from a re-analysis of the deposited data

Results flagged for a closer look

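The response to HFD differed between the models for 2 of the 9 Cyp4 probe sets, by a test of the difference itself, which 11.6% of all probe sets passed. For 1417070_at of Cyp4v3 the difference, prevention minus reversal, was -1.62 on the log2 scale (adjusted p = 0.0209, limma), with -1.12 in prevention and 0.51 in reversal; on the other Cyp4v3 probe set, 1417071_s_at, it was -0.16 (0.648). For Cyp4f15 it was 0.764 (adjusted p = 0.0470, limma), with 0.47 in prevention and -0.29 in reversal. The 3′ to 5′ index averaged 2.84 in HFD and 1.43 in chow of the prevention model, and 2.62 in HFD and 3.15 in chow of the reversal model. With the index in the fit the differences were -1.15 (0.230) and 0.32 (0.556). Groups of 2 or 3 samples were not tested for an outlying sample in single values.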

How the results depend on the processing

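Of 1108 recomputed values of 45 member effects, 1050 kept their direction and their side of the threshold, 25 lost and 12 gained the call, and 21 turned sign. Where a sample left out was in none of the groups compared, the effect could not change, only its p. The same holds where a setting changed only which probe sets were tested. The count of values kept is therefore partly fixed in advance. The count of members called for HFD in prevention was 0, against 1, with 1 probe set per gene and with the 3′ to 5′ index as a covariate, and 0 to 2 with each sample left out. For HFD in reversal it was 1, against 0, with 1 probe set per gene, and 0 to 1 with samples left out. For HFD averaged over the models it was 1, against 0, with all 18 arrays, with the replicate block, with 1 probe set per gene and with quantile normalisation, and 0 to 1 with samples left out. For the difference of the HFD effect it was 1, against 2, with the replicate block, without the filter, with 1 probe set per gene and without the 2 reversal arrays of the lowest index (chosen after seeing the data), 0 with the index covariate, and 0 to 2 with samples left out. For CMPF on HFD against chow in reversal it was 1, against 0, with the index covariate, and 0 to 1 with samples left out. With 1 probe set per gene, fewer features are tested and 1417070_at of Cyp4v3 is not among them; the cause of the other changes was not tested.

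The replicate block moved 1440134_at of Cyp4a31 past the threshold for HFD averaged over the models (adjusted p = 0.0353, limma). It took the Cyp4f15 difference out (0.0790) and turned 1440134_at for CMPF in prevention to -0.075. Whether the numbers pair samples is not known, so no conclusion is drawn from a call gained or lost there. Other values turned sign: with quantile normalisation Cyp4f13 for HFD in prevention (0.0055, against -0.10) and 1417071_s_at of Cyp4v3 for the HFD difference (0.23, against -0.16); without the 2 reversal arrays 1417071_s_at for HFD in reversal (0.029, against -0.08), and Cyp4f14 (-0.013, against 0.44) and 1417070_at of Cyp4v3 (0.024, against -0.03) for CMPF in reversal.

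With each sample left out, HFD in prevention ranged over -0.38 to 0.064 for Cyp4f13, and HFD in reversal over -0.17 to 0.029 for 1417071_s_at. CMPF in prevention ranged over -0.43 to 1.37 for Cyp4a14, -0.80 to 2.06 for 1424943_at and -0.37 to 1.01 for 1440134_at of Cyp4a31. The highest of these came without the averaged CMPF sample; with any other sample left out the highest were 0.85, 0.71 and 0.56. CMPF in reversal ranged over -0.31 to 0.34 for Cyp4a12a, -0.16 to 1.01 for 1424943_at, -0.39 to 0.32 for 1440134_at, -0.11 to 0.077 for 1417070_at and -0.064 to 0.13 for 1417071_s_at. Where a group kept 1 sample, that sample was assumed to vary like the others. Over all probe sets, HFD called 16 to 4250 in prevention (1553 with all samples) and 95 to 476 in reversal (334), and the index covariate gave 0 and 433.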
